A study of Mus musculus with 4 samples.

Results

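The guanylate-binding proteins (GBPs) are large GTPases whose genes lie in 2 clusters of the mouse genome, and the genes described here are the 10 members Gbp2 to Gbp11, taken by symbol from the 54532 genes of the count table. Gbp2, Gbp3, Gbp5 and Gbp7 lie on chromosome 3, within chr3:142493978-142638008, and Gbp4, Gbp6, Gbp8, Gbp9, Gbp10 and Gbp11 on chromosome 5, within chr5:105014150-105346472. RNA-seq had been performed on naive CD8+ T cells isolated from the spleen of C57BL/6 mice with immunomagnetic beads. Antibodies to CD3 and CD28 (anti-CD3, anti-CD28) activated all 4 samples over 48 h, 2 of them without further treatment (control) and 2 with IFNα at 2000 U/ml, so both groups hold activated cells and the comparison asks what IFNα adds to activation. The sample labels give no age, sex or number of mice. As nothing says whether a group's samples are separate cultures or animals, p-values cover only how far these particular samples differ, a spread that can be technical.

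GBPs belong to the dynamin superfamily and are best known as interferon-induced effectors of cell-autonomous immunity. They bind and hydrolyse GTP, assemble into higher-order coats, and in macrophages and fibroblasts gather on the vacuoles or surfaces of intracellular bacteria and parasites, which opens the way to vacuole rupture and inflammasome activation. Interferon γ induces them through the gamma-activated site (GAS) and, by way of IRF1, the interferon-stimulated response element (ISRE), and type I interferons such as IFNα act on the ISRE through a complex that holds STAT2 and IRF9. Activated CD8+ T cells can make interferon γ themselves.

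Total counts per sample ranged from 16096121 to 17676062, and all 10 members passed the filter on low counts. The CD8 T cell markers were high in every sample, with a summed level of 3255 to 4047 TMM-scaled CPM (counts scaled to a common library size), whereas Mrc1 and C1qa of the macrophage list were at 0 in all 4 samples. The 10 macrophage and monocyte markers summed to 18.0 and 16.1 CPM in the controls and to 7.09 and 8.25 CPM with IFNα, and 1 of the 2 that could be tested, Lyz2, fell (log2 fold change -1.46). Lyz2 made up most of that sum, and Fcgr1 of the same list had 1 and 1 counts in the controls and 9 and 10 with IFNα. The 7 B cell markers summed to 20.3 and 18.7 CPM in the controls and to 13.4 and 13.3 CPM with IFNα. Most of this was Cd79b, at 16.2 and 12.4 CPM in the controls and 8.03 and 7.61 CPM with IFNα. Cd79a had a mean of 4.38 CPM in the controls and 4.53 CPM with IFNα. None of the 3 tested B cell markers passed an adjusted p under 0.05. Cd79b had a log2 fold change of -0.87 (unadjusted p = 0.00494, adjusted p = 0.156, edgeR quasi-likelihood test). Eomes, the 1 tested gene of the NK list and one that CD8+ T cells also express, rose (log2 fold change 1.59). Over all genes tested, 1.43% were higher and 0.222% lower at the same threshold. The part of these markers in the results for the Gbp genes was not tested. The control samples also differed from each other by gene length. The median log2 ratio of control 2 to control 1 ran from -0.37 in the shortest of 5 length groups to 0.38 in the longest. Over the same groups, the median log2 fold change of IFNα against control ran from -0.19 to 0.17. In the groups that hold members it lay between -0.09 and 0.06.

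The members are shown first by their sequence, since it bears on which of them can be told apart by reads. The GTP-binding P-loop of the coding sequence, which holds the phosphates of the nucleotide, begins at codon 39 to 45 and is printed below from the GENCODE M21 transcripts (5′ to 3′, capitals where the 10 members do not all carry the same base). The sequences of Gbp6, Gbp8, Gbp9 and Gbp11 were identical.
Gbp6: ggATTGtACcGTacAggGaaGtcc
Gbp4: ggATGGtCCcATacAggGaaGtcc
Gbp10: ggATGGtCCcGTacTggGaaGtcc
Gbp2: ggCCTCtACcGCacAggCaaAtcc
Gbp5: ggTCTTtATcGCacAggCaaAtcc
Gbp7: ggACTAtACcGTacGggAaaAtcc
Gbp3: ggTTTAtATcGTacAggGaaGtcc

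The coding sequences of Gbp2 and Gbp5 end in a cysteine codon followed by 3 further codons, the form of the box at which a prenyl group is attached and through which these proteins reach membranes. The other 8 members lacked such an ending. The last 12 coding bases are printed with the cysteine codon in capitals. Gbp6 and Gbp10 share their last 12 bases.
Gbp2: TGCactatactc
Gbp5: TGTgttataagc
Gbp6: ctaaagcattta

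Gbp6 and Gbp10 were the hardest members to separate. Of the 50-base windows of their reference transcripts, 70.3% in Gbp6 and 73.9% in Gbp10 also occurred in a gene at another position, and of the 100-base windows 46.7% and 57.0% did. In the other 8 members, between 0.898% (Gbp5) and 21.2% (Gbp8) of 50-base windows and at most 5.13% (Gbp11) of 100-base windows did. For Gbp4, Gbp8 and Gbp9 these values include any windows in the up to 61 exon bases that they share at the same position. In addition, Gm43302, a gene model that spans Gbp10 and Gbp6 on the same strand, covers 1726 of the 5954 exon bases of Gbp6 and 1792 of the 3873 of Gbp10. It received 0 and 2 counts in the controls and 2 and 6 with IFNα. The sources used here do not say how reads that fit several genes were counted, and the split of reads between Gbp6 and Gbp10 is uncertain.

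**Figure D1:**
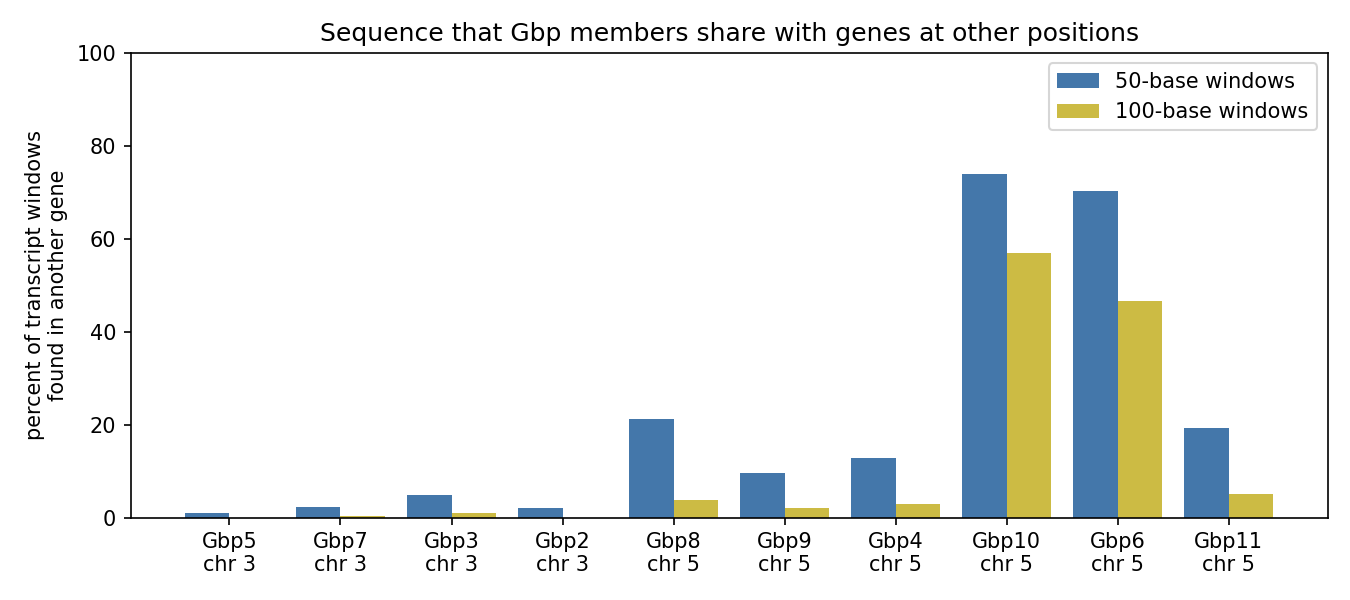
Percent of the 50-base (blue) and 100-base (yellow) windows of each member's reference transcript that also occur in another member or in a gene at another position. Gbp6 and Gbp10 reach 70.3% and 73.9% at 50 bases, and every other member stays at or below 21.2%.

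With IFNα, 4 of the 10 members rose, Gbp11, Gbp10, Gbp9 and Gbp6, all on chromosome 5, and none fell. The threshold was an adjusted p under 0.05 in edgeR's quasi-likelihood test, adjusted by the Benjamini-Hochberg method over 14417 genes. On the lower side, 1 member (Gbp2) had an unadjusted p under 0.05, and DESeq2, limma-voom and edgeR's likelihood ratio and exact tests also called none lower. Over all genes tested, 1.43% were higher and 0.222% lower by the same rule. With a log2 fold change beyond 1 added, as in the criterion of the study, 3 members were higher (Gbp9, Gbp10 and Gbp11) and none lower, against 1.28% and 0.139% of all genes. Both IFNα samples lay above both controls for 8 members and below both for 1 member, Gbp2, against 23.1% and 23.4% of all genes. The median log2 fold change was 0.65 over the 10 members and -0.01 over all genes tested. In bulk samples, a higher or lower level in each cell and more or fewer cells that express a gene cannot be told apart.

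**Figure D2:**
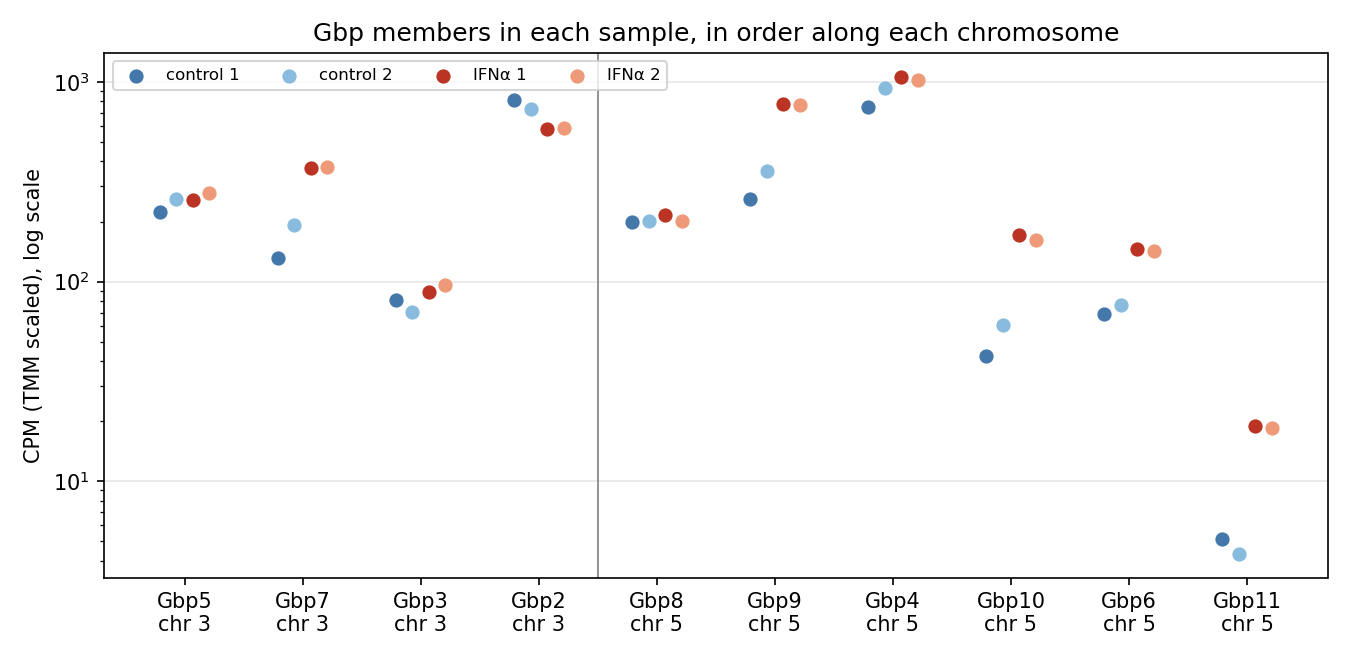
Level of each member in each of the 4 samples, as CPM on a log scale, with the chromosome 3 genes to the left of the line and the chromosome 5 genes to its right, each in order of position. The IFNα points of Gbp9, Gbp10, Gbp6 and Gbp11 lie above both control points, and those of Gbp2 below them.

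Gbp11, at chr5:105323042-105346472 and annotated in the table as a polymorphic pseudogene, was the least abundant member and had the largest fold change of the 10. Its level was 5.14 and 4.33 CPM in the controls and 18.8 and 18.5 CPM with IFNα. The groups did not overlap and their levels differed 3.94-fold, with a log2 fold change of 1.98 ± 0.17 (SE, n = 2 per group, adjusted p = 0.00513, edgeR quasi-likelihood test). Its raw counts were 89 and 76 in the controls against 300 and 319.

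Gbp10 (chr5:105215699-105239533) was at 42.3 and 61.0 CPM in the controls and at 171 and 162 CPM with IFNα. The controls lay further apart than the treated samples, and both lay far below either treated sample. The fitted log2 fold change was 1.69 ± 0.19 (SE, adjusted p = 0.0178, edgeR quasi-likelihood test). Gbp6 (chr5:105270702-105293698), a protein that in mouse macrophages is found around the Toxoplasma vacuole, was at 69.1 and 76.2 CPM in the controls and at 146 and 142 CPM with IFNα. Its log2 fold change was 0.99 ± 0.12 (SE, adjusted p = 0.0222, edgeR quasi-likelihood test), just short of the fold threshold of the study. The call on Gbp6 was lost when either IFNα sample was left out (adjusted p = 0.107 without sample 1 and 0.0813 without sample 2). With Gbp6, Gbp10 and Gm43302 summed to 1 row, a choice made after seeing the data, the log2 fold change was 1.32 (adjusted p = 0.0162, edgeR quasi-likelihood test). The sum does not show how much each of the genes contributed, nor does it hold reads that were not assigned to any of them.

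Gbp9 (chr5:105077630-105139539), which has also been seen at the Toxoplasma vacuole in mouse cells, was the most abundant of the members that rose. It was at 259 and 358 CPM in the controls and at 774 and 769 CPM with IFNα. Both treated samples lay well above the higher control, and the 2.50-fold difference corresponded to a log2 fold change of 1.32 ± 0.19 (SE, adjusted p = 0.0420, edgeR quasi-likelihood test). Scaled by total counts alone, its adjusted p was 0.0625.

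Gbp4 and Gbp8, the remaining chromosome 5 genes, did not pass the test. Gbp4 (chr5:105115767-105139586) was at 747 and 934 CPM in the controls and at 1061 and 1026 CPM with IFNα. Its control samples differed by 0.32 on the log2 scale, about as much as the log2 fold change of 0.31 ± 0.18 (SE, adjusted p = 0.567, edgeR quasi-likelihood test). Gbp8 (chr5:105014150-105139540) was the member closest to no difference. It was at 199.3 and 200.4 CPM in the controls and at 217 and 200.8 CPM with IFNα, a log2 fold change of 0.06 ± 0.12 (SE, adjusted p = 0.846, edgeR quasi-likelihood test), which turned to -0.0035 with upper-quartile scaling. Gbp4, Gbp8 and Gbp9 begin at nearly the same annotated position and share up to 61 exon bases there. Of these neighbours only Gbp9 passed, and a difference in response between them was not tested.

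**Figure D3:**
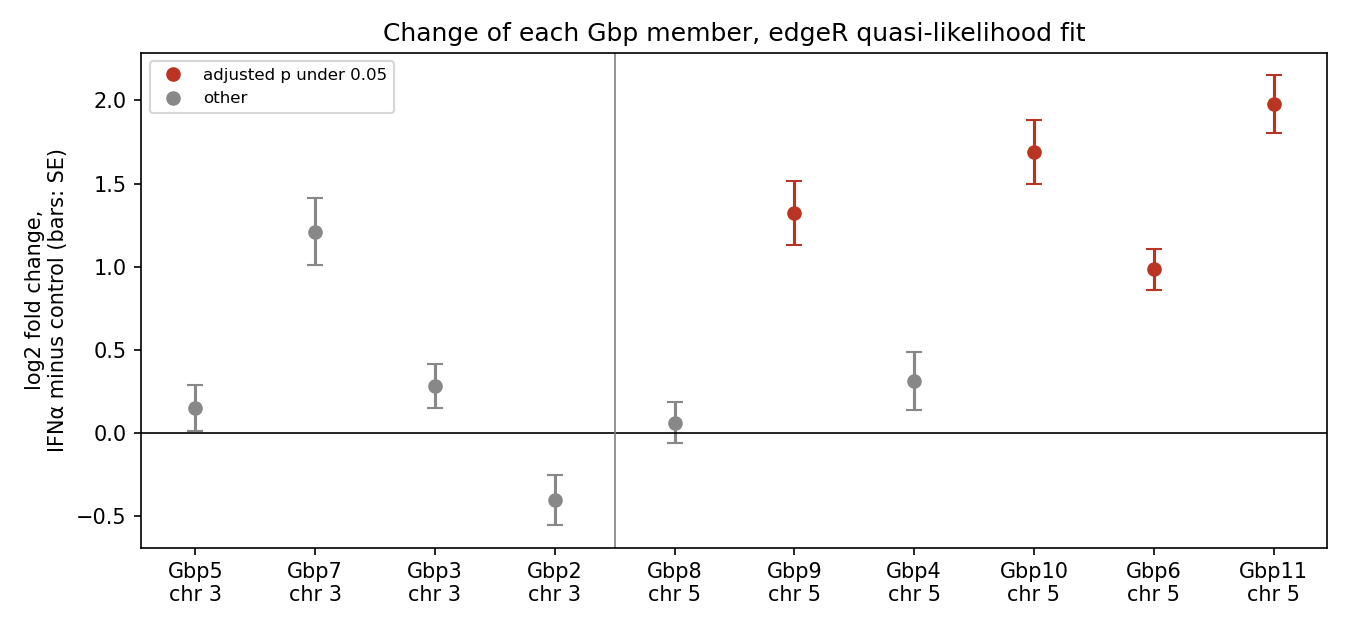
Log2 fold change of each member, IFNα minus control, from the edgeR quasi-likelihood fit, with SE bars, in order along chromosome 3 (left of the line) and chromosome 5. The 4 red points, from 0.99 for Gbp6 to 1.98 for Gbp11, passed an adjusted p under 0.05, and the grey points did not.

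Of the chromosome 3 members, Gbp7 came nearest to the threshold. Gbp7 (chr3:142530342-142550149), which in mouse macrophages helps to assemble the phagocyte NADPH oxidase, was at 131 and 191 CPM in the controls and at 370.1 and 376 CPM with IFNα. Both treated samples were well above both controls, but the controls differed by 0.55 on the log2 scale. The fitted difference was 2.32-fold, a log2 fold change of 1.21 ± 0.20 (SE, adjusted p = 0.0636, edgeR quasi-likelihood test). Gbp7 was the member whose call varied most with the method. It passed in 11 of 17 alternatives, with log2 fold changes of 0.97 to 1.51 over the 17. Those it passed included DESeq2 (adjusted p = 1.15e-06), edgeR's exact test (adjusted p = 1.15e-05) and the fits with a sample left out. Where it did not pass, adjusted p lay between 0.0528 (upper-quartile scaling) and 0.0951 (total counts), both by edgeR's quasi-likelihood test. Limma-voom was among these (adjusted p = 0.0558).

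Gbp2 (chr3:142620602-142638008), a prenylated member that in mouse cells acts on bacterial and Toxoplasma vacuoles, was the only one with lower values in both treated samples. It was at 817 and 729 CPM in the controls and at 583 and 585 CPM with IFNα. The log2 fold change was -0.40 ± 0.15 (SE, adjusted p = 0.404, edgeR quasi-likelihood test), which did not pass. Left with either control alone, the test gave an adjusted p of 0.000649 (without control 1) and 2.01e-08 (without control 2), but those fits took their spread from the IFNα pair and assumed that the lone control varies like it.

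Gbp5 and Gbp3 did not pass the test. Gbp5 (chr3:142493978-142522344), which in mouse macrophages promotes assembly of the NLRP3 inflammasome, was at 224 and 258 CPM in the controls and at 256 and 279 CPM with IFNα, and its groups overlapped. Its log2 fold change was 0.15 ± 0.14 (SE, adjusted p = 0.684, edgeR quasi-likelihood test). Gbp3 (chr3:142560026-142573209) was at 80.7 and 70.8 CPM in the controls and at 88.3 and 95.7 CPM with IFNα, with a log2 fold change of 0.28 ± 0.13 (SE, adjusted p = 0.510, edgeR quasi-likelihood test). Gbp3 passed with either control left out (adjusted p = 2.77e-05 without control 1 and 0.0343 without control 2, the same test), in fits that again took their spread from the IFNα pair.

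In every member but Gbp8, the controls lay further apart on the log2 scale than the treated samples. For Gbp8 the log2 ratio of sample 2 to sample 1 was 0.008 in the controls and -0.11 with IFNα. The log2 ratio of control 2 to control 1 was 0.55 for Gbp7, 0.53 for Gbp10 and 0.47 for Gbp9, whereas that of IFNα 2 to IFNα 1 lay between -0.11 and 0.13 for all 10 members. Without control 2, 8 members were called higher and Gbp2 lower, beside 22.8% of all genes called higher and 3257 of 15084 called lower. Without control 1, 6 members were called higher and Gbp2 lower, beside 7.50% of all genes called higher and 947 of 15144 called lower. The direction of each member was kept in all 4 of these fits.

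**Figure D4:**
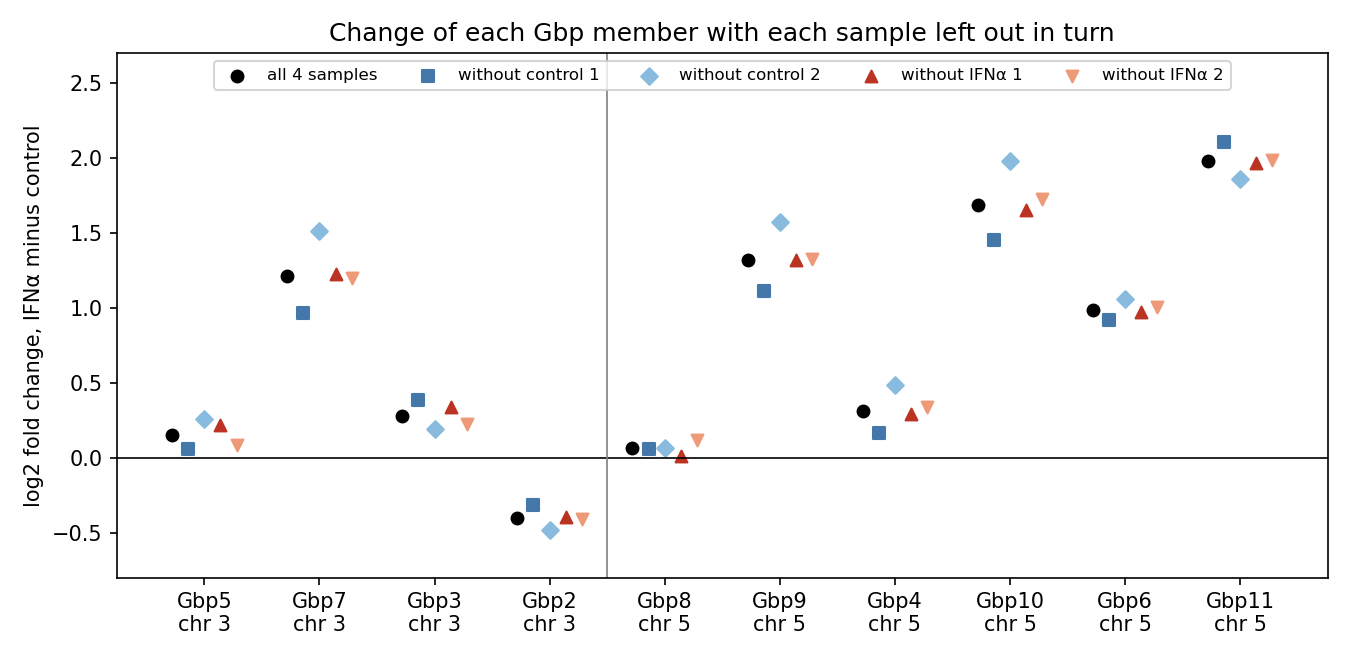
Log2 fold change of each member, IFNα minus control, with all 4 samples (black circles) and with each sample left out in turn (other symbols). Leaving out a control moved Gbp7 (0.97 to 1.51), Gbp9 (1.11 to 1.57) and Gbp10 (1.45 to 1.98) most, and no member crossed 0.

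As clusters, the chromosome 5 genes were higher in total with IFNα, and the chromosome 3 genes were at nearly the same total. The 6 chromosome 5 members summed to 1322 and 1634 CPM in the controls and to 2387 and 2319 CPM with IFNα, a 1.59-fold difference. The 4 chromosome 3 members summed to 1253 and 1249 CPM in the controls and to 1298 and 1337 CPM with IFNα, a 1.05-fold difference. The share of all member counts that fell on chromosome 5 was 51.3% and 56.7% in the controls and 64.8% and 63.4% with IFNα. The exact 95% binomial intervals, which cover counting error only, reached at most 57.1% in the controls and at least 63.1% with IFNα. No test was made of these sums or shares. The median member log2 fold change was 1.15 on chromosome 5 and 0.22 on chromosome 3.

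The make-up of the chromosome 3 sum differed more than its total. Gbp2 gave 65.2% and 58.4% of its counts in the controls and 44.9% and 43.8% with IFNα. Over the same samples Gbp7 gave 10.5%, 15.3%, 28.5% and 28.2%. Shares of a cluster sum to a fixed total, so a lower share need not be a lower level. On chromosome 5, Gbp4 gave 56.5% and 57.2% in the controls and 44.5% and 44.3% with IFNα, and Gbp9 gave 19.6%, 21.9%, 32.4% and 33.2%. The share of Gbp4 was lower with IFNα although its mean level was 840.4 CPM in the controls and 1044 CPM with IFNα.

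**Figure D5:**
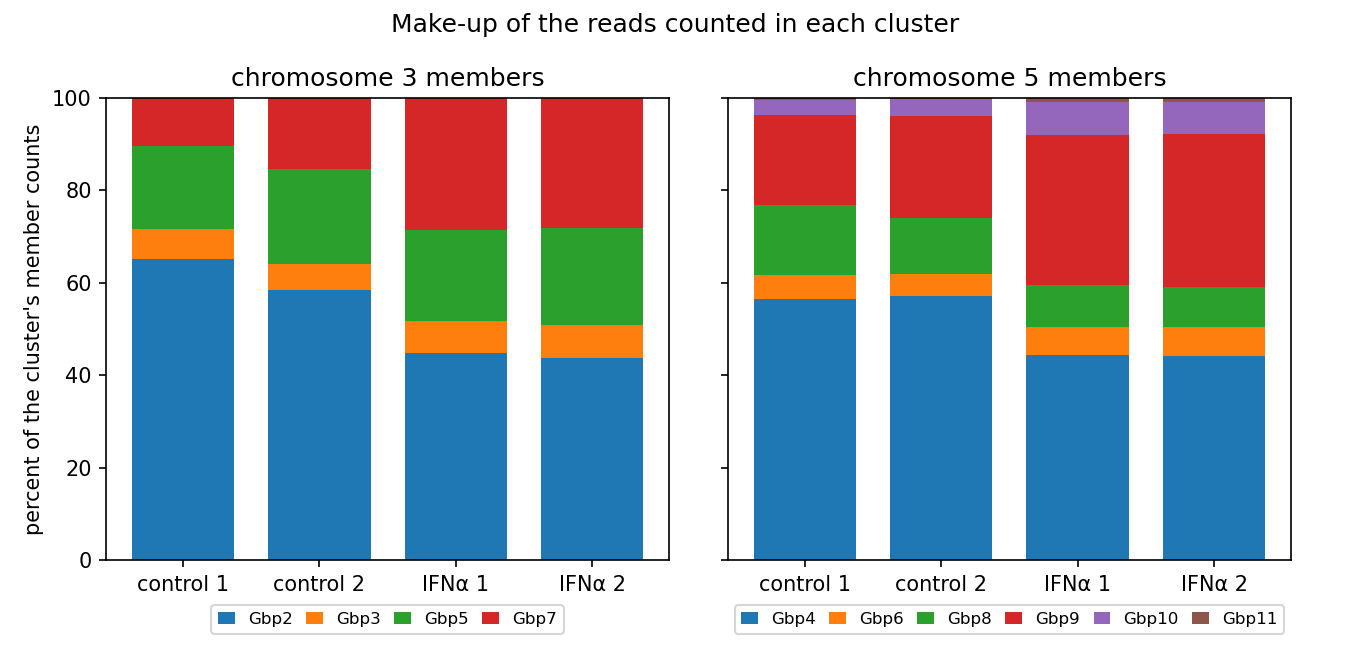
Share of each member in the counts of its cluster, in percent, for each of the 4 samples, with the chromosome 3 genes on the left and the chromosome 5 genes on the right. The red segments, Gbp7 on chromosome 3 and Gbp9 on chromosome 5, are wider in both IFNα samples than in both controls, and the blue segments, Gbp2 and Gbp4, are narrower.

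To compare levels between genes, CPM were divided by the gene length in kilobases. In the controls Gbp2 was highest at 307 CPM per kilobase, followed by Gbp4 at 112, Gbp9 at 59.7 and Gbp8 at 58.0, and Gbp11 was lowest at 1.76. Gbp9 and Gbp8 were not separated, nor were Gbp5 and Gbp7, Gbp7 and Gbp3, or Gbp10 and Gbp6, since their samples overlapped. With IFNα the order was Gbp2 at 232, Gbp9 at 149 and Gbp4 at 139 CPM per kilobase, with no overlap between their samples. The order in both groups rests on the length used, which counts all exon bases of a gene. It was 7494 bases for Gbp4, 6637 for Gbp5 and 5173 for Gbp9, against 4538, 3055 and 4381 in their reference transcripts. Undivided, the mean with IFNα was higher for Gbp4 (1044 CPM) than for Gbp9 (771 CPM). Levels by transcript length were not compared. Gbp7 was at rank 6 in the controls and rank 4 with IFNα, and Gbp10 at rank 8 and rank 6, where its samples overlapped those of Gbp5 at rank 7. When only exon bases that lie in no other gene were used as length, a choice made after seeing the data, Gbp10 ranked 7 in the controls and 4 with IFNα, and Gbp7 ranked 6 and 5.

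Promoter sequence, 300 bases of which 250 lie before the RefSeq start, was read for the 4 chromosome 3 members, for which the RefSeq table (GRCm38.p6) had an entry. The ISRE core was searched as GAAANNGAAA and GAS as TTCNNNGAA, on both strands. All 4 genes held an ISRE core, as did 3.44% of 32851 promoters of the same length. Gbp7 and Gbp5 each held GAS as well, a motif present in 8.30% of promoters, and 0.454% held both. The sites are printed on the plus strand, with the ISRE core (read as its reverse complement) in capitals. Gbp3 holds a pair that overlap, and a second RefSeq start of Gbp3 had none.
Gbp7, chr3:142530273-142530302: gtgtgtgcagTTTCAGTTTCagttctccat
Gbp2, chr3:142620594-142620623: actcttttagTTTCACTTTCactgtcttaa
Gbp3, chr3:142559989-142560018: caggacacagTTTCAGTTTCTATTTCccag
Gbp5, chr3:142496759-142496788: acttgtgtagTTTCAATTTCagtttagaga

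The promoter of Gbp7, the chromosome 3 member with the largest fold change, is printed for the 250 bases before its start, at chr3:142530086-142530335 on the plus strand, with both GAS motifs and the ISRE core in capitals. A match is a description of the letters only.
Gbp7: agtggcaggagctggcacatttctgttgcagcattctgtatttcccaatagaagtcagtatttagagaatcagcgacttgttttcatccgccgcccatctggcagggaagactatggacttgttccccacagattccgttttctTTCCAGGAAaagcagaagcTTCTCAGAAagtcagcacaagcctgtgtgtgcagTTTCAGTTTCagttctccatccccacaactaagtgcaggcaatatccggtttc

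Of the other rows within the clusters, Gbp2b, a further GBP gene on chromosome 3, was barely counted, at 3 and 2 counts in the controls and 0 and 2 with IFNα, a ratio of 0.42 with a 95% counting interval of 0.040 to 2.57. Within counting error, a fall to 0.040-fold or a rise to 2.57-fold of Gbp2b could not be told from no change. None of the 12 nearest tested protein-coding genes outside the clusters, 3 on each side, passed the test, 1 (Abcg3) had an unadjusted p under 0.05, and the other tests run called none. They lay between 31.4 kb (Abcg3) and 3586 kb (Tspan5) from their cluster. As 1.43% of all genes tested were higher and 0.222% lower, a list of 12 would seldom hold a call. On chromosome 3, log2 fold changes were -0.46 for Kyat3, which lies next to Gbp2, 0.06 for Gtf2b, 0.32 for Pkn2, -0.02 for Pdlim5, 0.05 for Rap1gds1 and -0.15 for Tspan5. On chromosome 5 they were -0.55 for Abcg3, which lies next to Gbp8, 0.20 for Zfp951, 0.96 for BC005561, 0.32 for Lrrc8b, which lies next to Gbp11, 0.02 for Lrrc8c and 0.21 for Lrrc8d. BC005561 had a control at 4.80 CPM and one at 17.0 CPM.

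The regulators of the GBPs were read from the same fit, in which 1.43% of all genes tested were higher and 0.222% lower. Of 8 genes of the type I interferon side, 4 rose, namely Usp18 (log2 fold change 4.53), Irf7 (4.51), Stat2 (2.34) and Irf9 (0.86), the last a subunit with Stat2 of the complex that binds the ISRE. Of 11 tested genes of the interferon γ side, 1 rose, Ifng itself, at 9.94 and 10.3 CPM in the controls and 79.2 and 86.3 CPM with IFNα (log2 fold change 3.03 ± 0.13 SE, adjusted p = 0.000408, edgeR quasi-likelihood test). The log2 fold changes of Jak2 (0.75, adjusted p = 0.0911) and Irf1, a main activator of GBP genes (-0.24, adjusted p = 0.581), did not pass the same test. Whether interferon γ made by the cells had a part in the level of any Gbp gene was not tested.

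The immunity-related GTPases (IRGs), which work beside the GBPs on vacuoles in mouse cells, gave a like count. Of 13 tested, 4 rose and none fell, against 1.43% higher and 0.222% lower of all genes, with a median log2 fold change of 0.81. Those that rose were Gm5431 (3.02), Gm12250 (1.10), Iigp1 (0.90) and Irgm1 (0.88). Several IRG genes are close copies, and the split of reads between them is uncertain. Of 10 tested genes of the dynamin superfamily outside the GBPs, the antiviral GTPases Mx2 (6.87) and Mx1 (6.01) rose, and the membrane fission and fusion genes did not pass.

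Among genes that act with the GBPs at vacuoles, 3 of 9 genes for vacuole sensing and ubiquitin rose. These were the E3 ligase Rnf213 (log2 fold change 4.21), the galectin Lgals9 (1.25) and the antibody receptor and E3 ligase Trim21 (1.05). None of the 7 prenylation genes passed, where the smallest p-values belonged to the farnesyltransferase subunits Fnta (-0.40, adjusted p = 0.428) and Fntb (-0.28, adjusted p = 0.485) by edgeR's quasi-likelihood test. None of 8 tested inflammasome genes passed, with Pycard at -0.53 (adjusted p = 0.314) and Casp4 at 0.45 (adjusted p = 0.431) by the same test. None of 13 genes for ATG8 conjugation passed either, with Map1lc3b at -0.37 (adjusted p = 0.428) and Gabarapl1 at -0.46 (adjusted p = 0.432). At an unadjusted p under 0.05 stood 1 prenylation gene (lower), 2 inflammasome genes (1 higher, 1 lower) and 2 ATG8 genes (both lower). DESeq2, limma-voom and edgeR's likelihood ratio and exact tests called none of the 3 lists' genes. As 1.43% of all genes tested were higher and 0.222% lower, lists of this size would seldom hold a call.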

How the data were processed

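RNA-seq counts of 4 samples of mouse CD8+ T cells, 2 control and 2 IFNα, were used. The deposited values are raw read counts per gene, which the authors made with HISAT2 and featureCounts of Subread. Settings for strand and for multi-mapping reads were not found in the paper or labels. The submitters' notes name mm9, but 53499 of 54532 genes, the 10 members included, have the chromosome, start and end of GENCODE M21 (GRCm38), and GRCm38 positions are given. No per-sample count differed between the single files and the table.

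Genes were filtered with filterByExpr (minimum count 10, minimum total 15), scaled by TMM and tested with edgeR 4.0.16 in R 4.3.3 (robust quasi-likelihood fit, condition only), and p-values were adjusted over 14417 genes by the Benjamini-Hochberg method. The study used edgeR but names no test within it. The scripts were tested on simulated data. Total counts of 16096121 to 17676062 per sample set the precision, and intervals cover counting error only. CPM are TMM-scaled. Alternatives were other scalings, filters and tests (DESeq2 1.42.0, limma 3.58.1), a replicate block, a gene length offset and each sample left out. The members and gene lists were chosen with earlier results of these data known. Named genes were all members, rows within the clusters, the nearest flanking genes, Irf1 and Ifng (a further regulator is not reported here), and, per list, at most 4 genes that passed, taken by size of change (where fewer than 2 passed, the 2 lowest p-values). Columns for gene length and position came from the table.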

Additional observations from a re-analysis of the deposited data

How the results depend on the processing

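The log2 fold changes of the members kept their direction under the alternatives run, except that of Gbp8, which was -0.0035 with upper-quartile scaling. With 1 sample left out in turn, 4 to 8 members were called higher and 0 to 1 lower, and 3 to 5 were higher by the criterion of the study. Outside these fits, the number called higher was between 3 (total counts) and 5. With the gene length offset, the log2 fold change was -0.27 for Gbp2, 0.21 for Gbp4, 0.36 for Gbp3 and 2.10 for Gbp11. Gbp7 passed in that fit (adjusted p = 0.0173, edgeR quasi-likelihood test). The summed chromosome 3 members had a log2 change of 0.07, which was 0.0078 with upper-quartile scaling, 0.026 with total counts and 0.13 with the gene length offset. The chromosome 5 share of member counts was 10.1 percentage points higher in the IFNα mean, and 14.2 higher with levels per kilobase. The causes of these differences were not tested. Over all genes, 206 were higher and 32 lower, against 424 and 224 by the exact test of edgeR, 430 and 233 by the likelihood ratio test, 346 and 87 with DESeq2, 356 and 138 without a filter, 348 and 103 with the length offset, and up to 3446 and 3257 with a sample left out.

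Same-numbered samples share only a number. Their deviations had a correlation of -0.31 over 10105 genes. With the replicate block, 5 members were higher and 4 by the criterion of the study, Gbp7 being the member added (adjusted p = 0.00808, edgeR quasi-likelihood test), and 274 genes were higher and 57 lower. With the pairs crossed, chosen after seeing the data, 5 members were higher, and 743 genes were higher and 340 lower.

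With 2 samples per group, the calls rest on few samples, and those on Gbp2, Gbp3, Gbp4, Gbp5, Gbp6 and Gbp7 changed with at least 1 of the samples left out. Gbp2b had so few counts that its interval ran from a fall to a rise.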
